A study of Sus scrofa with 2 samples.

Results

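Transcripts of 7 genes of the complement system and of the linked contact system were described in backfat, the subcutaneous fat of the back, of castrated and intact male pigs. The genes were C1R, C2, C7, C9, CR2, SERPING1 and KLKB1, chosen by name with their values in this comparison already known. They accounted for 8 of the 2645 transcripts, and 7 of the 2247 genes, in the mRNA table. The castrated and the intact group each comprised 3 Huainan pigs aged 300 days on a standard diet, and the labels do not state the age at castration. Since each group is 1 sample with a single value per transcript, the variation among pigs is unknown, and the groups were not tested against each other.

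Complement is a set of plasma and membrane proteins that tag particles, recruit immune cells and pierce membranes. In the classical pathway the protease C1r activates C1s, which cleaves C4 and C2 to form a convertase of C3. Later steps assemble C5b, C6, C7, C8 and C9 into the membrane attack complex. C1 inhibitor, encoded by SERPING1, blocks C1r, C1s and the MASP proteases, and also blocks plasma kallikrein, the product of KLKB1, which releases bradykinin from kininogen. Most circulating complement comes from the liver, while fat tissue is known as a source of adipsin, the factor D of the alternative pathway.

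The table named 7 of the 8 transcripts directly. C9 was found by its gene ID, 100037951, since the table calls it LOC100037951; RefSeq's gene table for another assembly (Sscrofa11.1) gives that ID the symbol C9. The same RefSeq table gives the gene ID that the authors label CR2 (100623585) the symbol CR1. Both are complement receptor genes, and which of them the authors' transcripts measured was not settled here, so the label CR2 is kept. Accession and version were identical in that RefSeq table for 4 of the transcripts, those of C2, C7, C9 and KLKB1. The SERPING1 transcript had another version there, and the accessions of the C1R transcript and both CR2 transcripts were not in it.

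Of these genes 6 had lower levels in castrated than in intact backfat, and KLKB1 had a higher one. All 7 passed a size rule: after adding a pseudocount of 1 FPKM the levels differed 2-fold or more, and the higher level reached 1 FPKM. FPKM is fragments per kilobase of transcript per 1000000 mapped fragments, so levels can be set side by side between genes. A gene's level here sums its listed transcripts alone. Any transcript of the gene outside the table is missing from its level, rank, ratio and share. Of all listed genes 80.1% passed the rule, 39.3% as lower and 40.9% as higher in the castrated group. Whatever the size, 1106 of the 2247 listed genes were lower and 1141 higher. Of the 8 transcripts 7 were lower and 1 was higher past the rule, against 39.9% lower and 42.6% higher, 82.5% in all, over the whole table. The table holds only transcripts that the authors called, with q-values up to 0.0499, so passing the rule does not set the 7 genes apart. Folds given for genes and sums are plain ratios of FPKM, while log2 changes carry the pseudocount. The summed level of the 7 genes was 194 FPKM in castrated and 793 FPKM in intact backfat, 4.08-fold lower. Over all listed genes the sums were 73595 FPKM in castrated and 72292 FPKM in intact backfat. In bulk tissue, fewer cells of a type and less RNA per cell cannot be told apart.

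**Figure D1:**
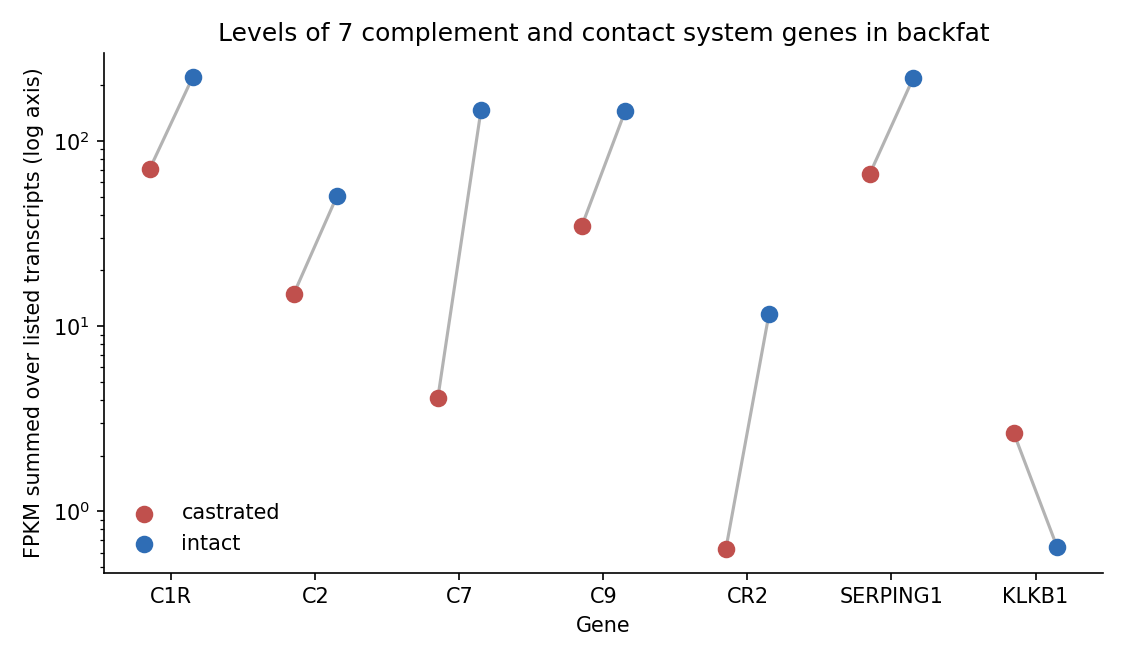
FPKM of each gene, summed over its listed transcripts, in castrated (red, left) and intact (blue, right) backfat, on a log axis, with 1 value per group and no error bars. C7 spans the widest gap, 4.09 FPKM in castrated against 147 FPKM in intact backfat, and KLKB1 alone is higher in the castrated group.

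C1R and C2 belong to the first steps of the classical pathway. C1R, the protease that starts the cascade inside the C1 complex, stood at 70.6 FPKM in castrated and 222 FPKM in intact backfat. This was a 3.15-fold lower level, a log2 change of -1.64, with a q-value of 0.00663 in the authors' deposited table. It was the highest of the 7 genes in both groups, and ranked 191 in the castrated and 35 in the intact group among the 2247 listed genes. C2, the protease subunit of the classical C3 convertase, stood at 14.9 FPKM in castrated and 50.4 FPKM in intact backfat. Its level was 3.37-fold lower, a log2 change of -1.69, with a q-value of 0.00121 in the authors' deposited table. The ratio of C1R to C2 was 4.73 in the castrated and 4.41 in the intact group, so both levels were lower by nearly the same factor.

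SERPING1, the inhibitor of C1r and C1s, lay close to C1R in both groups. It stood at 66.6 FPKM in castrated and 218 FPKM in intact backfat, 3.27-fold lower, a log2 change of -1.69. In the authors' deposited table its q-value was 0.00338. The ratio of C1R to SERPING1 was 1.06 in the castrated and 1.02 in the intact group. Protease and inhibitor transcripts were thus lower together, with little difference between their levels in either group.

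C7 and C9 encode parts of the membrane attack complex, and they differed in the size of their change. C7, which anchors the growing complex to the membrane, stood at 4.09 FPKM in castrated and 147 FPKM in intact backfat. That is 35.8-fold lower as a plain ratio. With the pseudocount the log2 change was -4.86, the third lowest of all 2247 listed genes. In the authors' deposited table its q-value was listed as 0. C9, which forms most of the pore, stood at 34.7 FPKM in castrated and 144 FPKM in intact backfat. It was 4.15-fold lower, a log2 change of -2.02, with a q-value of 7.84e-05 in the authors' deposited table. The ratio of C9 to C7 was 8.49 in the castrated group and 0.984 in the intact group. In intact backfat the 2 genes were therefore nearly level, while in castrated backfat C7 lay well below C9.

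The listed genes nearest to C7 by distance in the pair of log2(FPKM + 1) values were CLDN11, TNMD and SPON1. CLDN11, a claudin of tight junctions, stood at 4.42 FPKM in castrated and 106 FPKM in intact backfat. TNMD, the tendon and adipose glycoprotein tenomodulin, stood at 3.98 FPKM in castrated and 102 FPKM in intact backfat. SPON1, a secreted matrix protein, stood at 6.48 FPKM in castrated and 127 FPKM in intact backfat. Their distances to C7 were 0.47, 0.52 and 0.59 log2 units. With 1 value per group, this likeness rests on a pair of values per gene.

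The gene labelled CR2 had 2 listed transcripts, both lower in castrated backfat. Complement receptors of this family bind fragments of C3 and C4 on immune cells. The first transcript, XM_003357425.2, stood at 0.628 FPKM in castrated and 10.6 FPKM in intact backfat, with a log2 change of -2.83. The second transcript, XM_005667555.1, was listed at 0 FPKM in castrated and 1.08 FPKM in intact backfat, with a log2 change of -1.06, just past the rule. In the authors' deposited table their q-values were 3.88e-12 and 0.00545. Summed over both, the gene stood at 0.628 FPKM in castrated and 11.7 FPKM in intact backfat, 18.6-fold lower. Of the 9 fixed B cell markers this label was the single one listed, so no other marker of that list was available beside it.

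KLKB1, the precursor of plasma kallikrein, was the gene with the opposite direction. It stood at 2.64 FPKM in castrated and 0.642 FPKM in intact backfat, 4.11-fold higher, with a q-value of 0.0133 in the authors' deposited table. On the log2(FPKM + 1) scale its change was 1.15. These levels correspond to 5.85 fragments per 1000000 mapped in the castrated and 1.43 in the intact group, the fewest of any of the 7 genes in the intact group. With a pseudocount of 5 FPKM its change was 0.44 and it no longer passed the rule. Its inhibitor SERPING1 was lower in castrated than in intact backfat, and was much more abundant than KLKB1 in both groups.

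The median log2 change of listed genes with at least 1 FPKM in both groups was 0.43, and centring on it left every direction in place. Relative to this shift the changes were -5.29 for C7, -3.40 for CR2, -2.46 for C9, -2.13 for SERPING1, -2.12 for C2 and -2.07 for C1R. KLKB1 came to 0.71 and no longer passed the rule. Since the table holds called transcripts alone, the shift cannot be read as a difference in scale.

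**Figure D2:**
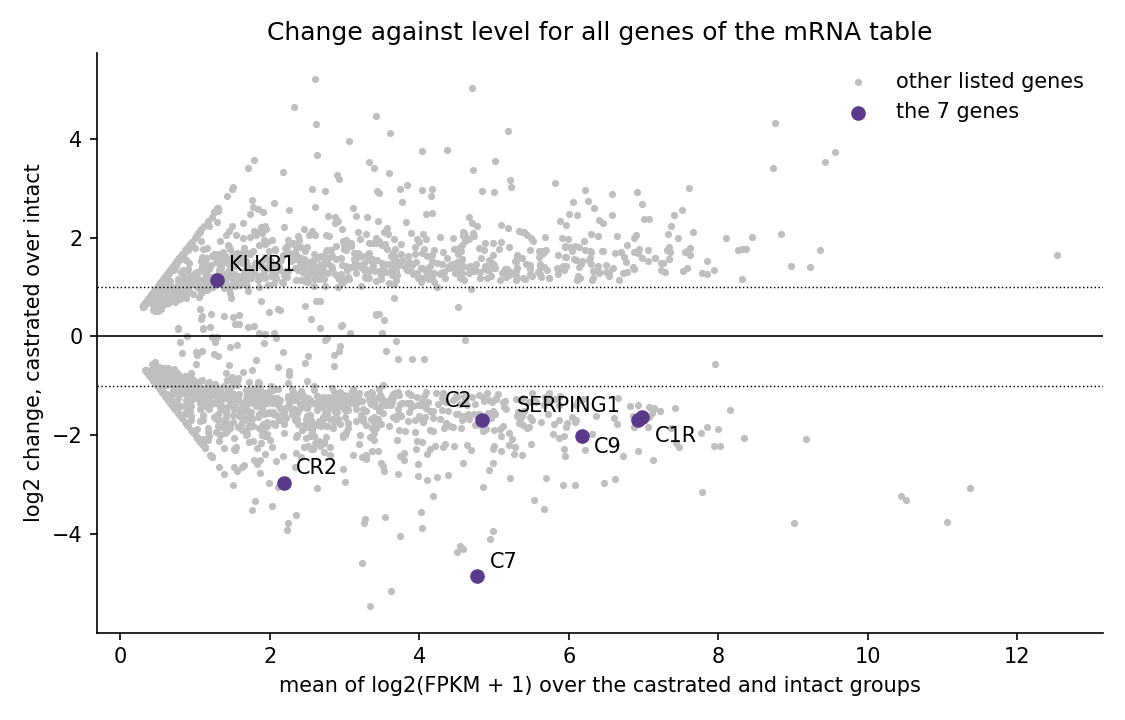
Log2 change (castrated over intact) against mean log2(FPKM + 1) for the 2247 listed genes (grey) and the 7 genes (purple), with dotted lines at 2-fold. C7, at -4.86, lies at the lower edge, C1R, C2, C9 and SERPING1 lie between -1.64 and -2.02, and KLKB1 sits among low genes above the upper line.

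The make-up of the summed level differed mainly in C7. It made up 2.11% of the summed FPKM of the 7 genes in castrated and 18.5% in intact backfat. C1R made up 36.4% in castrated and 28.0% in intact backfat, and SERPING1 34.3% in castrated and 27.4% in intact backfat. The share of C9 was nearly equal, 17.9% in castrated and 18.2% in intact backfat. CR2 and KLKB1 were minor, at 0.323% and 1.36% in castrated and at 1.47% and 0.0810% in intact backfat.

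**Figure D3:**
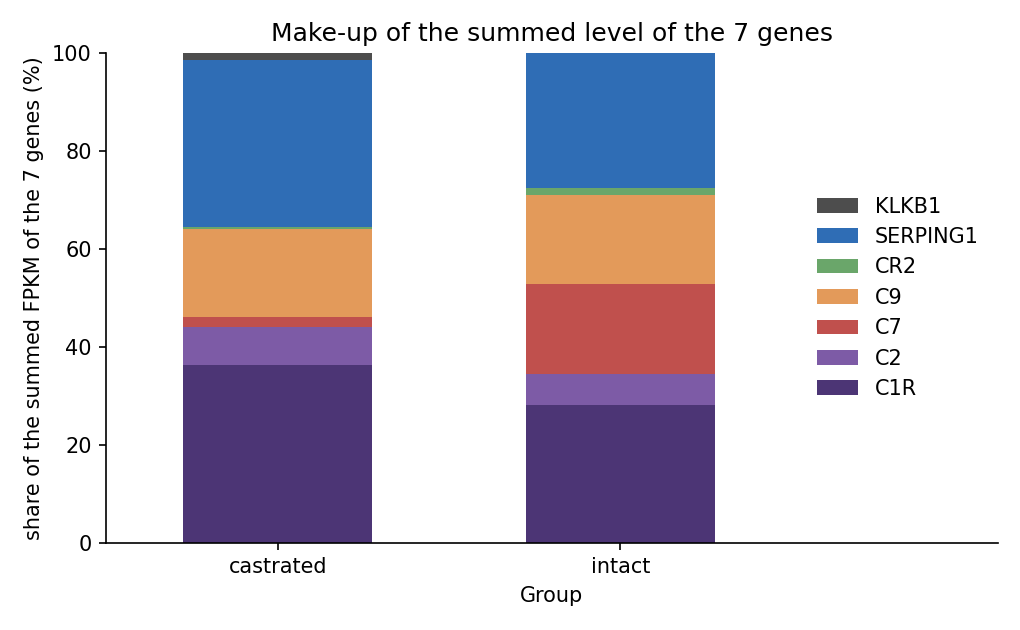
Share of each gene, in percent, of the summed FPKM of the 7 genes in castrated and intact backfat. The C7 segment is 2.11% in castrated and 18.5% in intact backfat, while the C9 segment is near 18% in both.

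Other complement genes were mostly lower too. A list of 48 complement components, regulators and receptors had 12 genes in the table. Of these 11 were lower and 1 was higher in castrated backfat, while 1106 of all 2247 listed genes were lower. The median log2 change of the list was -1.62, against 0.26 over all listed genes. Both the count and the median of the list include genes chosen with their values known. Without the 7 genes the list held 6, with a median log2 change of -1.28. Of these C4, CFB, CFD, CFI and MASP1 were lower and ITGB2 was higher. C4, the component cleaved together with C2 and named C4A in RefSeq, stood at 28.7 FPKM in castrated and 74.0 FPKM in intact backfat, a sum over 2 transcripts. CFB, the C2 counterpart of the alternative pathway, stood at 1.85 FPKM in castrated and 7.61 FPKM in intact backfat. CFD, which encodes adipsin, the protease that cleaves factor B, stood at 79.5 FPKM in castrated and 236 FPKM in intact backfat. C2 and C4 of the classical pathway and CFB and CFD of the alternative pathway were thus all lower.

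MASP1, a protease of the lectin pathway, stood at 2.40 FPKM in castrated and 6.93 FPKM in intact backfat. CFI, the protease that inactivates C3b and C4b, stood at 6.34 FPKM in castrated and 15.8 FPKM in intact backfat. ITGB2, the shared beta chain of leukocyte integrins and of complement receptors 3 and 4, stood at 8.46 FPKM in castrated and 3.23 FPKM in intact backfat, with a log2 change of 1.16. After median centring ITGB2 came to 0.73 and no longer passed the rule. Genes without a listed transcript, C1S, C3 and C6 among them, have no value here and are not known to be unchanged.

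The coagulation and kinin list of 39 genes had 5 in the table, KLKB1 as the higher one and 4 lower ones. Among all 2247 listed genes 1106 were lower. A2M, a broad protease inhibitor, stood at 8.18 FPKM in castrated and 42.3 FPKM in intact backfat. PROCR, the endothelial receptor of protein C, stood at 16.1 FPKM in castrated and 67.8 FPKM in intact backfat. PLAT, the tissue plasminogen activator, stood at 5.52 FPKM in castrated and 15.6 FPKM in intact backfat. PLAU, the urokinase, was listed at 0 FPKM in castrated and 1.53 FPKM in intact backfat. With a pseudocount of 5 FPKM, 2 of these 4 genes still passed the rule as lower.

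**Figure D4:**
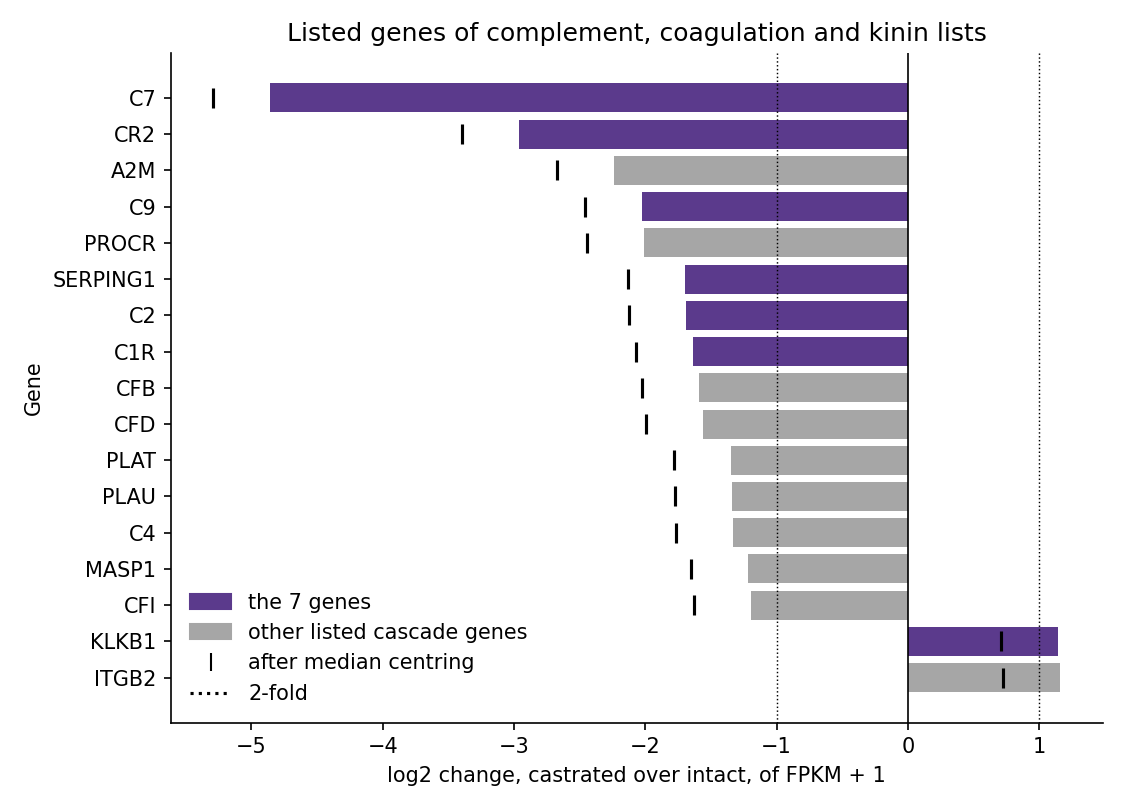
Log2 change of FPKM + 1 (castrated over intact) for the 17 listed genes of the complement and the coagulation and kinin lists, the 7 genes in purple, others in grey, with ticks after median centring and dotted lines at 2-fold. C7 is lowest at -4.86, and KLKB1 and ITGB2 are higher in castrated backfat, with ticks at 0.71 and 0.73, inside the 2-fold line.

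For complement and coagulation cascades, the authors' own pathway column holds listed genes that are all on these lists already, the 7 genes among them. Over all 2247 listed genes, 1106 were lower and 1141 higher. The size rule was passed by 39.3% of them as lower and 40.9% as higher, 80.1% in all. Of 15 listed genes that this column places in complement and coagulation cascades, 14 were lower in castrated backfat and KLKB1 was higher. In its systemic lupus erythematosus pathway, 5 of 16 listed genes were lower and 11 were higher. The 5 lower genes were C1R, C2, C4, C7 and C9, and the higher ones included the histone gene HIST1H3E and the class II antigen gene SLA-DRB1. In its hematopoietic cell lineage pathway, which includes CR2, 10 of 15 listed genes were higher and 5 were lower, and 5 of the higher and 4 of the lower ones passed the size rule. In its B cell receptor signaling pathway, which also includes CR2, 2 of 7 listed genes were higher and 5 were lower, and 1 of the higher and 4 of the lower ones passed. In its Epstein-Barr virus infection pathway, the other one with CR2 beside the cascade itself, 17 of 27 listed genes were higher and 10 were lower, and 12 of the higher and 8 of the lower ones passed.

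Shared protein domains, as the authors' description column gives them, were looked at after the values were known. As background, 1106 of all 2247 listed genes were lower and 1141 higher in castrated backfat, whatever the size. Counts cover only genes that this column labels with a domain. The Sushi domain, a module of many complement proteins, was given for 10 listed genes, C1R, C2 and C7 among them. It was not given for CR2, which does not show that CR2 lacks it. All 10 had a lower level in castrated backfat, and 9 passed the rule, beside 39.3% of all listed genes past it as lower and 80.1% past it either way. The trypsin-like Peptidase S1 domain of C1R, C2 and KLKB1 was given for 16 listed genes, of which 11 were lower and 5 higher. The CUB domain of C1R was given for 14 listed genes, of which 13 were lower and 1 higher. The membrane attack complex and perforin domain of C7 and C9 was given for 3 listed genes, and the third, BRINP3, was lower too. The serpin domain of SERPING1 was given for 4 listed genes, and the other 3, AGT, SERPINB8 and SERPINB11, were higher. The C1q domain, found in none of the 7, was given for 10 genes, of which 9 were lower, among them C1QTNF1, C1QTNF2, C1QTNF3, C1QTNF5 and C1QTNF6.

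In the gene order of Sscrofa11.1, C2 and CFB are direct neighbours and C4A lies 5 protein-coding genes from C2. C7 and C9 are separated by 6 protein-coding genes. All 5 genes were lower in castrated backfat, as were 1106 of all 2247 listed genes. The sizes differed between neighbours, from 2.57-fold for C4 to 4.11-fold for CFB, and from 4.15-fold for C9 to 35.8-fold for C7. C1S, next to C1R, had no listed transcript.

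Markers of cell types differed between the groups in both directions, and their part in the results was not tested. Of all 2247 listed genes, 1106 were lower and 1141 higher in castrated backfat. Of 13 fibroblast and adipocyte progenitor markers 5 were listed, all lower, with a summed level of 1720 FPKM in castrated and 16294 FPKM in intact backfat. Their levels were 2.73-fold lower for COL14A1, 3.17-fold lower for PDGFRA, 4.50-fold lower for MFAP5, 8.43-fold lower for DCN and 13.5-fold lower for COL1A1. Of 13 macrophage markers 3 were listed, all higher, with a summed level of 210 FPKM in castrated and 13.9 FPKM in intact backfat. Most of this sum was SPP1, at 154 FPKM in castrated and 7.64 FPKM in intact backfat.

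Of 13 mature adipocyte markers 8 were listed, 7 of them higher and CFD lower, with a summed level of 2122 FPKM in castrated and 876 FPKM in intact backfat. PLIN1, a coat protein of lipid droplets, stood at 392 FPKM in castrated and 153 FPKM in intact backfat. ADIPOQ, another defining adipocyte gene, had no listed transcript. Of 12 hepatocyte markers the single one listed was a gene labelled ICA by the authors and TF in RefSeq. Which of them was measured was not settled here. This gene stood at 1.24 FPKM in castrated and 5.16 FPKM in intact backfat. The red cell markers HBB and ALAS2 were higher, with a summed level of 1390 FPKM in castrated and 131 FPKM in intact backfat. Nearly all of this sum was HBB, at 1383 FPKM in castrated and 130 FPKM in intact backfat. Of 7 smooth muscle and pericyte markers 3 were lower and 1, RGS5, was higher. Their summed level was 149 FPKM in castrated and 106 FPKM in intact backfat. Most of the castrated sum was RGS5, at 130 FPKM in castrated and 46.5 FPKM in intact backfat. EGFL7, the single listed one of 8 endothelial markers, stood at 4.48 FPKM in castrated and 13.1 FPKM in intact backfat. None of the listed markers stood at 0 in either group.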

How the data were processed

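Total RNA of backfat was depleted of ribosomal RNA and sequenced from strand-specific libraries on an Illumina instrument, per the labels' protocols. Whether RNA of the 3 pigs was pooled or values were averaged is not stated in the labels. TopHat2, Cufflinks and the build Sscrofa10.2 appear in the submitters' processing notes, with no role or version. Per the file headers, the authors deposited FPKM per transcript for each group, a log2 fold change, which is log2 of the FPKM ratio, and p-values and q-values of their own, with an unstated number of transcripts tested. All q-values lie under 0.05. The depth behind the FPKM is unknown, so no interval is given; fragments per 1000000 mapped are FPKM times length in kilobases.

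FPKM was summed per gene symbol over listed transcripts, with LOC names replaced by RefSeq symbols matched on gene ID (87.6% of transcripts matched an ID). Log2 changes carry a pseudocount of 1 FPKM, and folds given for genes and sums are ratios of FPKM without it. Simulated data with large planted changes served only to check that the size rule was computed as stated. Low intact levels were left out of that check, which gives no precision for measured levels. The members, the gene lists and the markers were chosen with earlier results of these data known. Named genes were the members, every list gene in the table, listed markers beside a result, and the 3 genes nearest to the member with the largest change; genes named for a domain or pathway were chosen after their values were seen. Alternatives were pseudocounts of 0.1 and 5 FPKM, no minimum or a minimum of 5 FPKM, median centring, the highest transcript per gene, and members by deposited name alone. Python 3.11.15, pandas 2.3.3, NumPy 2.4.6 and Matplotlib 3.10.9 were used. The lncRNA and circRNA tables were not used here, since they name none of the 7 genes.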

Additional observations from a re-analysis of the deposited data

How the results depend on the processing

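Every gene kept its direction under each alternative run. Over them the log2 change per gene ran from -5.29 to -4.06 for C7, from -4.02 to -1.57 for CR2, from -2.46 to -1.91 for C9, from -2.13 to -1.64 for SERPING1, from -2.12 to -1.47 for C2, from -2.07 to -1.59 for C1R and from 0.44 to 1.88 for KLKB1. The count of 6 lower genes stayed within 1.5 times under every setting. The 1 higher gene and 1 higher transcript, both KLKB1, came to 0 with a pseudocount of 5, with a minimum of 5 FPKM and after median centring. As a transcript KLKB1 came to 0.01 after centring on the transcript median of 1.14. The second CR2 transcript no longer passed with a pseudocount of 5, at -0.28. The 1 higher gene of the complement list came to 0 with a pseudocount of 5 and after centring. In the coagulation and kinin list the 4 lower genes came to 2 with a pseudocount of 5, and the 1 higher gene came to 0 with a pseudocount of 5, a minimum of 5 FPKM and centring. A larger pseudocount shrinks the change of low genes by construction. The other losses are arithmetic too. KLKB1 reached 2.64 FPKM at most, in castrated backfat, so a minimum of 5 FPKM drops it. Centring subtracts 1 shift from every change, which brings KLKB1 and ITGB2 under the rule. Leaving out C9, which the table does not name, an alternative chosen after seeing the data, gave 5 lower genes and 6 lower transcripts. No paired analysis was possible because each group has 1 sample. With an unknown depth, low values such as those of KLKB1 and CR2 have no stated precision.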
